A study of Homo sapiens with 9 samples.

Results

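The fibroblast growth factor (FGF) genes described here were 5 ligands (FGF2, FGF9, FGF18, FGF19 and FGF20) and 5 receptors (FGFR1, FGFR2, FGFR3, FGFR4 and FGFRL1). They were taken by gene name from the table of transcript counts, with the transcript of highest total count over 9 libraries standing for each gene, and make up 10 of the 20878 genes counted. All 10 passed the filter on low counts. Polyadenylated RNA was sequenced from SW480, a human colorectal cancer cell line whose own APC is defective, and from 2 lines derived from it, with 3 libraries per line. The question was how the transcriptome of SW480 cells differs once functional APC is put back, with an empty-vector line to account for non-specific changes. APC is a tumour suppressor that holds down beta-catenin and the TCF/LEF transcription factors it works with.

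The line called APC is D2.15, which carries pEF-mycAPC, a pEF vector with myc-tagged APC. The line called CONTROL is R38.7, which carries pEF alone, and the line called SW480 is the parent with no vector. All 3 share the defective APC of SW480 and the same medium (RPMI with thioglycerol, hydrocortisone, insulin, foetal calf serum and penicillin/streptomycin), and RNA was taken 72 h after plating. G418, the selection drug, was added for APC and CONTROL and not for SW480. Fewer APC cells were plated, 2 for every 3.35 of CONTROL or SW480. Each group is 1 line grown on parallel plates, so the tests measure the spread between plates. Effects of the introduced APC, of the vector, of the isolated line and of plating density cannot be told apart. In comparisons with SW480 the effect of G418 cannot be told apart from them either.

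FGFs are secreted proteins that bind receptor tyrosine kinases at the cell surface together with heparan sulfate, or with a klotho protein for the hormone-like members such as FGF19. The bound receptor signals through adaptors to the RAS-ERK cascade, which switches on ETS factors and its own inhibitors. FGFR1, FGFR2 and FGFR3 are each spliced with 1 of a pair of alternative exons, IIIb or IIIc, that encode part of the ligand-binding domain. Epithelial cells mostly use IIIb and mesenchymal cells IIIc. In the intestine FGF19 is made by ileal enterocytes in response to bile acids and acts on the liver, while FGF9, FGF18 and FGF20 have been described as targets of beta-catenin and TCF/LEF in other settings.

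Total counts over genes ran from 16456740 to 19358019 per library, and 3 counts correspond to 0.156 to 0.184 CPM (counts-per-million units, on library sizes scaled by edgeR's TMM method). The introduced gene matched the labels: APC averaged 145 ± 5.0 CPM in APC cells, 47.9 ± 1.59 in CONTROL and 49.3 ± 2.46 in SW480 (SD, n = 3 each). Counts do not separate the construct from the cells' own APC transcript. The 6 epithelial markers summed to 6054 to 6230 CPM in APC, 5987 to 6291 in CONTROL and 5366 to 6006 in SW480, most of it KRT8, KRT18 and KRT19, whereas CDH17 had 8 counts in all. Within that list 3 genes were higher and 2 lower in APC against SW480, and 3 higher and 1 lower against CONTROL: EPCAM averaged 382 CPM in APC, 42.4 in CONTROL and 49.4 in SW480, and KRT18 2160 CPM in APC, 2797 in CONTROL and 2306 in SW480. Of all genes tested, 35.6% were called higher and 36.9% lower in APC against SW480, and 34.8% and 35.4% against CONTROL. Leukocyte markers summed to 31.9 to 33.8 CPM in APC, 7.69 to 9.64 in CONTROL and 14.6 to 16.0 in SW480, mostly CORO1A. Of these markers 5 of 6 were in the count table, and PTPRC, the defining marker, was absent from it. Fibroblast markers, 4 of 6 in the count table, summed to 11.7 to 13.0 CPM in APC, 12.8 to 15.8 in CONTROL and 16.4 to 18.3 in SW480, and all 4 endothelial markers to at most 1.52 CPM in any library. The fibroblast sum was mostly COL1A1, while PDGFRB, a mesenchymal marker in the list, averaged 0.0766 CPM in APC, 3.17 in CONTROL and 3.90 in SW480. The part of these differences in the FGF results was not tested.

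Most FGF ligand and receptor transcripts were less abundant in APC cells than in either other line. Of the 10 genes, 8 fell and FGFR2 rose against SW480, and 8 fell and none rose against CONTROL. FGF18 had the largest change of the 10 against both lines, 17.1-fold lower than in SW480 and 11.1-fold lower than in CONTROL. CONTROL also differed from SW480 at 5 of the 10 genes, among them FGF19. The rise of FGFR2 against SW480 had no matching call against CONTROL.

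These counts have to be read against how many genes differed at all, since all 3 comparisons called a large share of the 14255 genes tested at an edgeR adjusted p under 0.05. Against SW480, 36.9% of all genes were called lower in APC and 35.6% higher, beside 8 and 1 of the 10 FGF genes (72.5% in either direction, beside 9). Against CONTROL, 35.4% of all genes were lower in APC and 34.8% higher, beside 8 and 0 of the 10 (70.2% in either direction, beside 8). Between CONTROL and SW480, 24.7% of all genes were lower in CONTROL and 25.3% higher, beside 3 and 2 of the 10 (50% in either direction, beside 5). Counting only genes called lower by more than 2-fold, the FGF set had 5 of 10 against SW480, where 11.1% of all genes qualified, and 2 of 10 against CONTROL, where 9.69% did. Between CONTROL and SW480 it had 2 of 10, where 3.22% did. Libraries of the compared lines did not overlap for 9, 8 and 6 of the 10 genes in the 3 comparisons, and for 73.1%, 73.4% and 56.6% of all genes. The median log2 fold change over the 10 genes was -0.94 for APC over SW480, -0.56 for APC over CONTROL and -0.16 for CONTROL over SW480, while the median of all genes was -0.01 in each. The 3 comparisons share libraries, so they are not independent of each other. The 10 genes were chosen with earlier results of these data known, so their shares beside those of all genes are description and no test. Of 4 other FGF genes tested, 2 were lower and 2 not called in APC against SW480. Against CONTROL 1 was lower and 3 were not called.

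**Figure D1:**
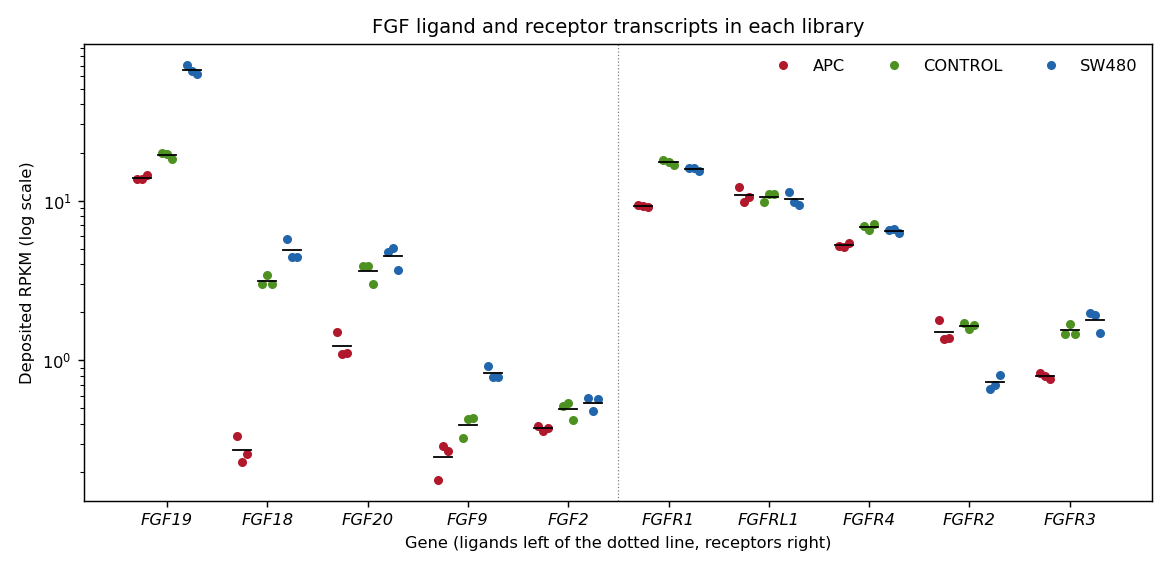
Deposited RPKM (reads scaled to transcript length and library size, log axis) of the 10 genes in each of the 9 libraries, ligands left and receptors right of the dotted line. Points are libraries, coloured by line, and bars are means of 3. FGF19 stands highest in every line, and the 3 APC points of FGF18 lie more than 8-fold under all the others.

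Levels of different genes were compared in RPKM, the authors' length-scaled value. FGF19 led in every line, with 13.9 ± 0.459 RPKM in APC, 19.3 ± 0.911 in CONTROL and 66.0 ± 4.46 in SW480 (SD, n = 3 each). The next places were held by FGFR1, FGFRL1 and FGFR4 in all 3 lines, between 5.27 and 17.3 RPKM, with FGFRL1 ahead of FGFR1 in APC and behind it in CONTROL and SW480. FGF18 stood near the bottom in APC at 0.275 ± 0.0542 RPKM, where its libraries overlapped those of FGF9 at 0.247 ± 0.0607. It stood mid-range in CONTROL at 3.15 ± 0.240 RPKM and in SW480 at 4.88 ± 0.757, overlapping FGF20 in both. FGFR2 overlapped FGF20 in APC (1.52 and 1.24 RPKM), FGFR3 in CONTROL (1.65 and 1.54) and FGF9 in SW480 (0.727 and 0.834). FGF2 and FGF9 also overlapped in CONTROL (0.495 and 0.396 RPKM), and all other neighbours in the 3 orders were separate. The read depth behind the low end was small: FGF18 had 14, 9 and 10 counts in the APC libraries.

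FGF18 is a ligand of the FGF8 subfamily that signals chiefly through the IIIc forms of the receptors and through FGFR4. It had 0.770, 0.521 and 0.584 CPM in APC, against 6.71, 7.74 and 6.81 in CONTROL and 12.7, 9.81 and 9.94 in SW480. The 3 lines did not overlap, with APC far below and CONTROL between it and the parent. Set against SW480, FGF18 had a log2 fold change of -4.09 ± 0.19 (SE, edgeR adjusted p = 1.02e-19), and set against CONTROL one of -3.48 ± 0.21 (1.44e-16). Only 1.12% and 1.49% of all genes tested had a lower log2 fold change in those comparisons. With limma on log2(RPKM + 1), a scale that shrinks the change of low genes, FGF18 had -2.20 against SW480 and -1.70 against CONTROL, both still called. CONTROL was lower than SW480 by a smaller step, -0.61 ± 0.11 on the log2 scale (edgeR adjusted p = 2.18e-05).

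The 250 bases before the FGF18 start are shown because FGF18 had the largest change and beta-catenin acts through TCF/LEF, whose core word was searched there. The sequence is from RefSeq on GRCh38.p14, chr5:171419397-171419646, plus strand, and capitals mark the only match, ATCAAAG read on the minus strand, 174 bases upstream of the start.
FGF18: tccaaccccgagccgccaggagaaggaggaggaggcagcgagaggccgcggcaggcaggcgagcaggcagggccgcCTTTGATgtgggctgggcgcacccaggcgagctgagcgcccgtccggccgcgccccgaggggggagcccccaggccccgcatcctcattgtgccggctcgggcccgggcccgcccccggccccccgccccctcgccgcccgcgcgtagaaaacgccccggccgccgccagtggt
FGFRL1, which did not pass the test in any comparison, held the same word on the same strand, 160 bases upstream of its start (chr4:1012214-1012463, plus strand), and is shown beside it.
FGFRL1: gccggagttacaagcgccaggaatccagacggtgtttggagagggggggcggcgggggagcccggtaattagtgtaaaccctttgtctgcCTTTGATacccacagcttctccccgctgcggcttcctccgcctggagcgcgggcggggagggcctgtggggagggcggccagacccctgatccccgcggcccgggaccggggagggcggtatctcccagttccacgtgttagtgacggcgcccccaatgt
The search on both strands covered AACAAAG, the word ATCAAAG, the word TACAAAG and the word TTCAAAG, and no match overlapped another. RefSeq promoters were at hand for 6 of the 10 genes, 11 in all, and 3 of the 11 held a word: FGF18, FGFRL1 and 1 of the 5 starts of FGFR2, with TACAAAG 99 bases upstream. Over all 35116 promoters of the same length, 12% held at least 1 of the words and 2.26% held ATCAAAG. A match describes the letters and is no evidence of a bound factor. Entries for FGF9, FGF19, FGF20 and FGFR1 were not used here.

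FGF20, a ligand of the FGF9 subfamily, followed FGF18 in size of change against CONTROL. APC libraries had 1.76, 1.27 and 1.29 CPM, CONTROL libraries 4.46, 4.55 and 3.48 and SW480 libraries 5.38, 5.73 and 4.24. All 3 APC values lay under all 6 others, and CONTROL and SW480 overlapped. Its log2 fold change was -1.82 ± 0.19 against SW480 (edgeR adjusted p = 1.29e-10) and -1.51 ± 0.19 against CONTROL (2.28e-08). CONTROL against SW480 gave -0.31 ± 0.15 (edgeR adjusted p = 0.0805), which passed the test without SW480 replicate 3 (0.0222).

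FGF9, the founder of that subfamily and a ligand of the IIIc forms and of FGFR3, was low in every line. It had 0.935, 1.50 and 1.40 CPM in APC, 1.66, 2.21 and 2.23 in CONTROL and 4.68, 3.97 and 4.03 in SW480. The lines did not overlap, and the wider gap lay between CONTROL and SW480. The log2 fold change was -1.72 ± 0.19 for APC against SW480 (edgeR adjusted p = 1.36e-09) and -1.05 ± 0.17 for CONTROL against SW480 (5.80e-06). For APC against CONTROL it was -0.67 ± 0.23 (edgeR adjusted p = 0.00998), a call that was lost on leaving out APC replicate 1 (0.0829) or CONTROL replicate 3 (0.0523).

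FGF19, the bile-acid-responsive hormone that signals through FGFR4 and beta-klotho, was the most abundant ligand and differed mainly from the parent. APC libraries had 33.7, 33.1 and 35.0 CPM and CONTROL libraries 48.3, 47.6 and 44.3, against 169, 155 and 150 in SW480. Both vector-carrying lines were far below the parent, and APC was below CONTROL by a smaller step without overlap. With SW480 as the base, FGF19 was 4.65-fold lower in APC (-2.22 ± 0.05 on the log2 scale, edgeR adjusted p = 2.92e-28) and 3.38-fold lower in CONTROL (-1.76 ± 0.05, 1.29e-24). Of all genes tested, 1.09% had a lower log2 fold change than FGF19 between CONTROL and SW480. Against CONTROL, APC was 1.38-fold lower (-0.46 ± 0.06 on the log2 scale, edgeR adjusted p = 1.10e-08).

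FGF19 lies on chromosome 11 beside FGF3, another ligand gene, and ORAOV1, the nearest genes tested on its 2 sides. FGF3 had 10.9, 10.6 and 11.7 CPM in APC, 11.4, 13.4 and 11.9 in CONTROL and 43.9, 40.2 and 38.6 in SW480. As for FGF19, the parent stood far above both derived lines, while APC and CONTROL overlapped. The log2 fold changes of FGF3 were -1.88 ± 0.07 for APC against SW480 and -1.75 ± 0.07 for CONTROL against SW480, and -0.14 ± 0.09 for APC against CONTROL (edgeR adjusted p = 0.181). ORAOV1 gave -0.06, -0.20 and 0.15 in the same order.

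The genes known from the FGF19 axis of ileum and liver were barely measured in these cells. KLB, which encodes beta-klotho, had 38 counts over all 9 libraries, with 6, 6 and 8 in APC, 0, 5 and 2 in CONTROL and 4, 2 and 5 in SW480, and was too low to test. Of 7 genes listed for bile acid sensing and handling 5 were in the count table, and none had enough counts to test.

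FGF2, a broadly acting ligand without a classical secretion signal, had the smallest changes of the ligands. It had 3.02, 2.78 and 2.92 CPM in APC, 3.97, 4.18 and 3.27 in CONTROL and 4.36, 3.64 and 4.35 in SW480. APC libraries lay under all others, and CONTROL overlapped SW480. Set against SW480, FGF2 had a log2 fold change of -0.50 ± 0.15 (edgeR adjusted p = 0.00436), and set against CONTROL one of -0.38 ± 0.16 (0.0318). The call against CONTROL was lost with DESeq2 (adjusted p = 0.101) and without APC replicate 2 (0.0965), APC replicate 3 (0.0700), CONTROL replicate 1 (0.0955) or CONTROL replicate 2 (0.117). NUDT6, transcribed from the opposite strand over the end of FGF2, gave log2 fold changes of -0.54 ± 0.12 against SW480 and -0.38 ± 0.12 against CONTROL. Whether counting used the strand is not given in the sources used here, so reads from the stretch where FGF2 and NUDT6 overlap cannot be told apart. The part of such reads in either count was not measured.

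**Figure D2:**
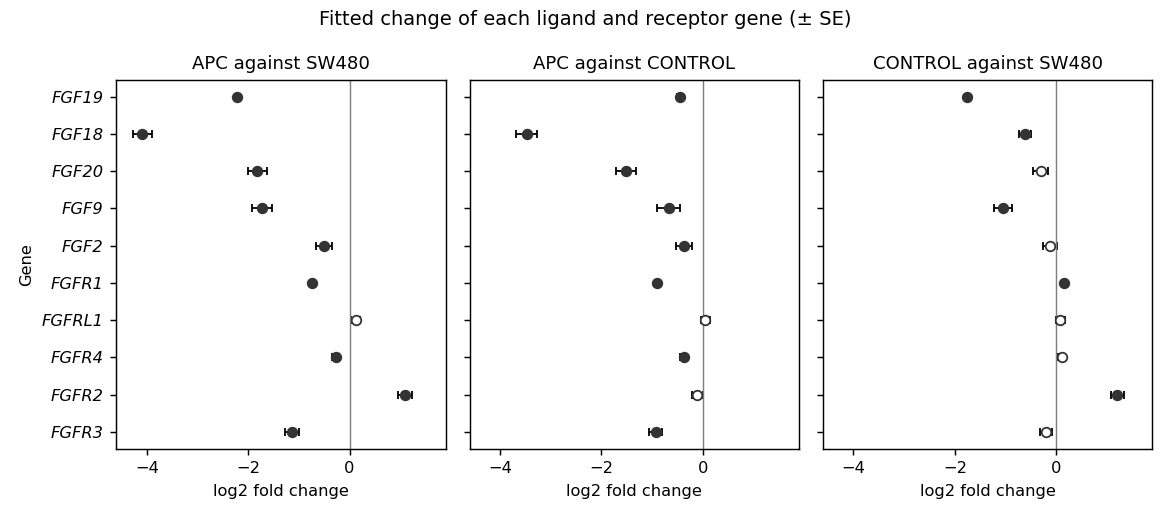
Log2 fold changes with standard errors from edgeR for the 10 genes in the 3 comparisons, ligands above receptors. Filled points passed an adjusted p of 0.05 and open points did not. The ligands lie left of 0 in each panel, while FGFR2 lies to the right in both comparisons with SW480 and close to 0 for APC against CONTROL.

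The receptors did not all change in 1 direction. FGFR1, FGFR3 and FGFR4 were lower in APC than in both other lines. FGFR2 was higher in both vector-carrying lines than in the parent, and FGFRL1 did not pass the test in any comparison. The median log2 fold change of the 5 receptors was -0.27 for APC over SW480, -0.38 for APC over CONTROL and 0.11 for CONTROL over SW480. For the 5 ligands the medians were -1.82, -0.67 and -0.61. In whole-culture RNA, fewer cells with a transcript and less of it per cell cannot be told apart.

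FGFR1, the most abundant receptor kinase here and mainly a receptor of mesenchymal cells, had 63.8, 62.2 and 61.3 CPM in APC. CONTROL libraries had 120, 117 and 112 CPM and SW480 libraries 105, 106 and 102. APC was well below both other lines, and CONTROL lay just above SW480 without overlap. The log2 fold change of FGFR1 was -0.74 ± 0.04 against SW480 (edgeR adjusted p = 1.39e-16) and -0.90 ± 0.04 against CONTROL (5.48e-19). CONTROL was higher than SW480 by 0.16 ± 0.04 (edgeR adjusted p = 0.00164).

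FGFR3, which restrains bone growth and is expressed in intestinal crypts of mouse, had 4.12, 3.88 and 3.74 CPM in APC. It had 7.14, 8.29 and 7.12 CPM in CONTROL and 9.48, 9.22 and 7.14 in SW480. APC libraries were below all 6 others, and SW480 replicate 3 lay within the range of CONTROL. In APC, FGFR3 was 2.20-fold lower than in the parent (-1.14 ± 0.13 on the log2 scale, edgeR adjusted p = 1.50e-09) and 1.91-fold lower than in CONTROL (-0.93 ± 0.13, 1.71e-07). CONTROL against SW480 gave -0.20 ± 0.11 (edgeR adjusted p = 0.135), which passed the test without SW480 replicate 3 (0.0194).

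FGFR4, the receptor that FGF19 uses with beta-klotho, had 18.5, 18.0 and 18.9 CPM in APC, 24.1, 22.9 and 24.9 in CONTROL and 22.5, 22.7 and 21.7 in SW480. APC libraries lay below those of both other lines. The log2 fold changes were -0.27 ± 0.07 against SW480 (edgeR adjusted p = 0.000698) and -0.38 ± 0.07 against CONTROL (9.06e-06). CONTROL libraries all lay above those of SW480, but the log2 difference of 0.11 ± 0.07 was not called (edgeR adjusted p = 0.177).

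FGFR2, whose IIIb form is the main epithelial receptor for FGF7 and FGF10, was the 1 member called higher in APC than in SW480. The transcript standing for FGFR2 was its IIIc form, with 1108 counts over all libraries against 1102 for the IIIb form. For FGFR3 it was the IIIb form. FGFR2 had 9.62, 7.23 and 7.31 CPM in APC and 9.02, 8.35 and 8.73 in CONTROL, against 3.45, 3.64 and 4.24 in SW480. APC and CONTROL overlapped, and both were above the parent in all libraries. The log2 fold change was 1.09 ± 0.13 for APC against SW480 (edgeR adjusted p = 5.38e-09) and 1.20 ± 0.13 for CONTROL against SW480 (1.81e-09), and only -0.11 ± 0.11 for APC against CONTROL (0.390). Of all genes tested, 98.7% had a lower log2 fold change than FGFR2 between CONTROL and SW480.

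FGFRL1, a receptor that binds FGFs and heparin but lacks the tyrosine kinase domain, had 45.2, 35.7 and 38.6 CPM in APC, 35.7, 40.1 and 40.3 in CONTROL and 40.7, 34.9 and 34.1 in SW480. The lines overlapped in every comparison. Log2 fold changes were 0.13 ± 0.09 for APC over SW480 (edgeR adjusted p = 0.208), 0.05 ± 0.09 for APC over CONTROL (0.661) and 0.08 ± 0.09 for CONTROL over SW480 (0.473). The first passed the test without APC replicate 2 (edgeR adjusted p = 0.0239), without SW480 replicate 1 (0.0156) and with no filter on low counts (0.0326).

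The deposited table counted each RefSeq transcript separately, which allowed the IIIb and IIIc forms of FGFR2 to be set against each other. The IIIb transcript had slightly more counts than the IIIc transcript in all 3 APC libraries and slightly fewer in all 6 others. In APC the IIIb transcript had 179, 128 and 129 counts and the IIIc transcript 175, 125 and 125, a surplus of 4, 3 and 4 counts for IIIb. In CONTROL IIIb minus IIIc was -5, -2 and -6, and in SW480 it was -2, -1 and -1. As a percent of the larger count, the difference averaged 2.56% ± 0.472 in APC, -2.67% ± 1.08 in CONTROL and -1.95% ± 1.02 in SW480 (SD, n = 3 each). APC libraries lay above all others, by 4.51 percentage points on average against SW480 and 5.23 against CONTROL. The exact two-sided permutation p was 0.1 for each, the smallest that 3 against 3 libraries can give, and 0.5 for CONTROL against SW480, which overlapped. The 2 transcripts share nearly all their reads, so the net difference rests on a handful of counts per library and gives no share of either form.

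**Figure D3:**
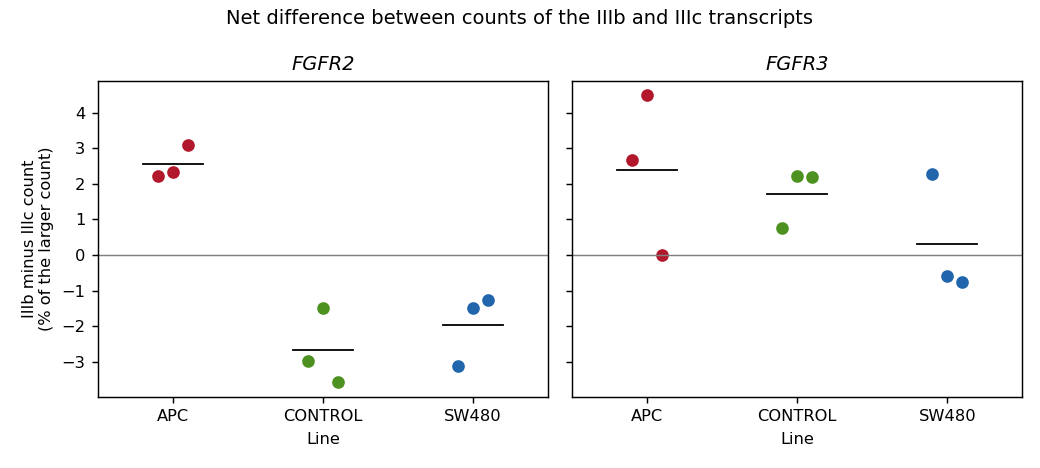
Net difference between the counts of the IIIb and IIIc transcripts, as a percent of the larger count, for FGFR2 (left) and FGFR3 (right). Points are libraries and bars are means of 3. For FGFR2 the 3 APC points are above 0 and the other 6 below it, while for FGFR3 the lines overlap.

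FGFR3 did not show this separation. Its IIIb minus IIIc difference was 2, 3 and 0 counts in APC, 1, 3 and 3 in CONTROL and 4, -1 and -1 in SW480, with overlap in every pair of lines. Exact two-sided permutation p-values were 0.2 for APC over SW480, 0.7 for APC over CONTROL and 0.4 for CONTROL over SW480. For FGFR1 the table gave forms with and without the exon of the first Ig-like domain, a pair chosen after the values were seen. The form with the exon was ahead by 26, 27 and 30 counts in APC, 90, 71 and 61 in CONTROL and 77, 78 and 63 in SW480. That is 2.54% ± 0.310 of the larger count in APC, 3.53% ± 0.626 in CONTROL and 3.75% ± 0.364 in SW480, with APC below SW480 (exact two-sided permutation p = 0.1) and overlapping CONTROL (0.2). The form with the exon is the longer transcript (5901 against 5634 bases) and shares nearly all its reads with the other. Some surplus therefore follows from its length, and the difference gives no share of either form.

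Regulators of the IIIb and IIIc choice differed between the lines. ESRP1, an epithelial splicing factor that favours IIIb, had 86.2, 91.3 and 87.2 CPM in APC, against 3.33, 3.62 and 3.01 in CONTROL and 1.72, 1.34 and 1.02 in SW480. The lines did not overlap, and APC was more than 20-fold above both others. ESRP1 rose by 6.01 ± 0.09 on the log2 scale over SW480 and by 4.73 ± 0.08 over CONTROL (edgeR adjusted p = 4.06e-33 and 4.87e-32). CONTROL was itself higher than SW480 by 1.28 ± 0.18 (edgeR adjusted p = 4.49e-07). ESRP2, its close relative, averaged 63.5 ± 3.66 CPM in APC, 28.1 ± 1.21 in CONTROL and 25.8 ± 1.57 in SW480 (SD, n = 3 each), 1.30 ± 0.06 and 1.18 ± 0.06 higher in APC on the log2 scale. RBFOX2, which promotes IIIb in other cells, rose in APC by 0.27 ± 0.04 and 0.23 ± 0.04, and PTBP1, a repressor of exon IIIb, was not called in any comparison. The part of these regulators in the FGFR2 difference was not tested.

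Genes around the FGF set were taken from 8 lists covering other ligands, co-receptors, heparan sulfate, signal relay, feedback, ETS factors, splicing and bile acids, 93 genes in all. Of 64 with enough counts to test, 24 rose and 26 fell in APC against SW480, 30 rose and 22 fell against CONTROL, and 9 were higher and 28 lower in CONTROL than in SW480. The shares of all genes called higher and lower were 35.6% and 36.9% against SW480, 34.8% and 35.4% against CONTROL, and 25.3% and 24.7% in CONTROL against SW480. Their median log2 fold changes were -0.06, 0.08 and -0.11, beside -0.01 for all genes in each comparison.

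**Figure D4:**
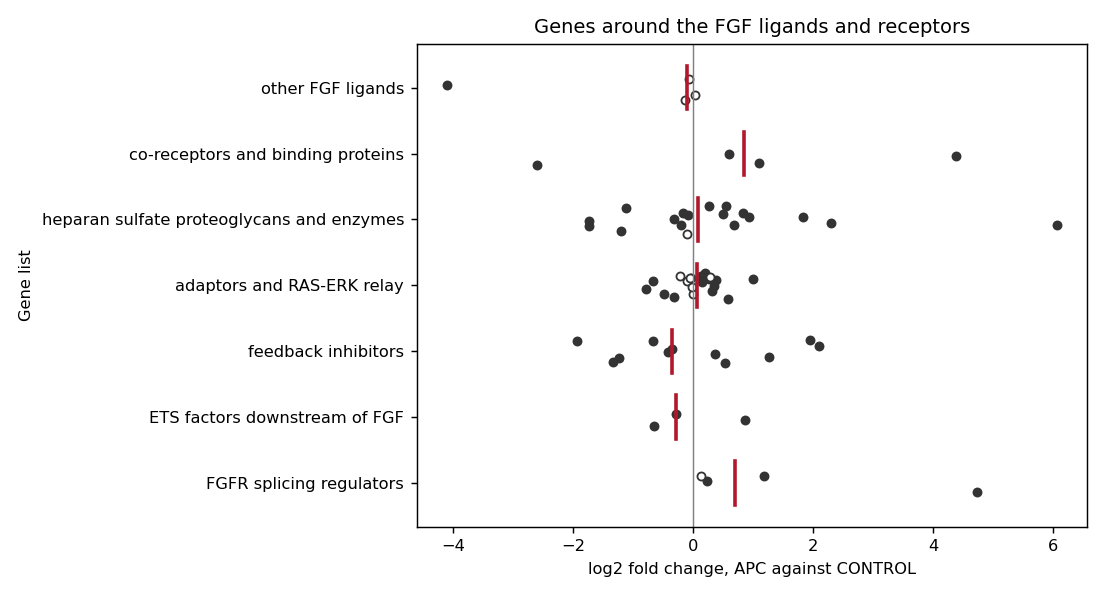
Log2 fold change of APC against CONTROL for genes of the lists around the FGF set. Each point is a gene, filled where the edgeR adjusted p was under 0.05, and bars are list medians. All 4 splicing regulators lie right of 0, while co-receptors (median right of 0) and feedback inhibitors (median left of it) have members on both sides. The rightmost point, HS3ST1, was named after its values were seen and rests on 1.70 ± 0.684 CPM in APC, against 0.0173 in CONTROL.

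Of the 17 other FGF genes, 4 were abundant enough to test. FGF13, an intracellular member that acts on sodium channels rather than on FGF receptors, averaged 0.245 ± 0.113 CPM in APC, 4.28 ± 1.12 in CONTROL and 6.02 ± 0.248 in SW480 (SD, n = 3 each). The log2 fold change in APC was -4.57 ± 0.28 against SW480 and -4.09 ± 0.30 against CONTROL (edgeR adjusted p = 2.96e-16 and 4.74e-14). FGF5 and FGF11 were not called in any comparison.

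Among co-receptors and carriers, 3 of 4 tested genes rose and 1 fell in APC against CONTROL. The shares of all genes called higher and lower there were 34.8% and 35.4%. KL, the alpha-klotho co-receptor of FGF23, had 8, 4 and 7 counts in APC, 40, 36 and 45 in CONTROL and 16, 27 and 27 in SW480, a log2 fold change of -2.61 ± 0.30 against CONTROL and -1.78 ± 0.34 against SW480. FGFBP1, a secreted carrier that frees FGFs from the matrix, had 11, 21 and 16 counts in APC, 1, 0 and 1 in CONTROL and 4, 4 and 1 in SW480. FLRT1 and FGFBP3 rose by 1.10 ± 0.26 and 0.60 ± 0.21 against CONTROL and were not called against SW480.

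Heparan sulfate genes split almost evenly, with 9 of 18 higher and 8 lower in APC against CONTROL, and 8 and 9 against SW480. Of all genes, 34.8% were higher and 35.4% lower against CONTROL, and 35.6% and 36.9% against SW480. SDC4, a membrane proteoglycan core, averaged 780 ± 10.2 CPM in APC, 159 ± 3.95 in CONTROL and 157 ± 7.12 in SW480. SULF2, which removes 6-O-sulfates used in FGF signalling, averaged 319 ± 5.93 CPM in APC, 89.7 ± 1.03 in CONTROL and 85.3 ± 2.69 in SW480 (SD, n = 3 each). These rises were 2.29 ± 0.04 and 1.83 ± 0.04 on the log2 scale against CONTROL (edgeR adjusted p = 4.35e-32 and 1.44e-29). EXT1, a polymerase of the sugar chain, and SDC3, another core, had log2 fold changes of -1.73 ± 0.06 and -1.20 ± 0.05 against CONTROL, and SDC3 also one of -0.86 ± 0.04 in CONTROL against SW480.

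The relay from receptor to ERK held genes called in both directions: of 20 genes, 9 rose and 4 fell in APC against CONTROL, and 6 rose and 6 fell against SW480. Among all genes 34.8% were called higher and 35.4% lower against CONTROL, and 35.6% and 36.9% against SW480. The adaptor SHC1 had a log2 fold change of -0.78 ± 0.04 against CONTROL and the adaptor GRB2 one of 0.58 ± 0.04. PLCG1, a phospholipase recruited by the receptors, and SOS2, an activator of RAS, had -0.49 ± 0.04 and -0.66 ± 0.07. Against SW480 the 4 genes (SHC1, GRB2, PLCG1 and SOS2) had log2 fold changes of -0.62, 0.52, -0.81 and -0.51.

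All 11 feedback inhibitors were called in both APC comparisons, 5 higher and 6 lower in each, where 72.5% of all genes were called against SW480 and 70.2% against CONTROL. DUSP6, a cytoplasmic ERK phosphatase induced by FGF signalling, averaged 136 ± 6.10 CPM in APC, 521 ± 23.8 in CONTROL and 717 ± 18.8 in SW480 (SD, n = 3 each). Its log2 fold change in APC was -2.40 ± 0.04 against SW480 and -1.93 ± 0.04 against CONTROL (edgeR adjusted p = 1.02e-31 and 5.12e-29). IL17RD, a membrane antagonist of FGF receptors, had log2 fold changes of -1.81 ± 0.05 and -1.23 ± 0.05 in the same order. The nuclear ERK phosphatases DUSP4 and DUSP5 went the other way, 2.10 ± 0.07 and 1.27 ± 0.06 higher in APC than in CONTROL. Against SW480 the rises were 0.85 ± 0.06 and 1.06 ± 0.06, and DUSP4 had -1.25 ± 0.07 in CONTROL against SW480. In CONTROL against SW480, 8 of the 11 were lower, where 24.7% of all genes were, and none was higher.

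The 3 ETS factors that serve as readouts of FGF signalling did not all change in 1 direction. ETV5 had 108, 103 and 113 CPM in APC, 169, 166 and 169 in CONTROL and 205, 204 and 202 in SW480, and ETV4 averaged 110 ± 4.44 CPM in APC, 133 ± 3.82 in CONTROL and 171 ± 13.8 in SW480. Both were lowest in APC, with log2 fold changes of -0.64 ± 0.04 and -0.28 ± 0.05 against CONTROL. ETV1 averaged 15.9 ± 0.634 CPM in APC, 8.70 ± 0.575 in CONTROL and 12.4 ± 1.50 in SW480, and was higher in APC by 0.86 ± 0.09 against CONTROL and 0.36 ± 0.09 against SW480.

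For FGF members averaging at least 10 CPM in some line, the genes with the most similar pattern of log2 CPM over the 9 libraries were found by Pearson r, which here mostly reflects the differences between the 3 lines. FGF18 was most like C10orf54 (r = 0.9991) and RHOB (0.9984), with 469 genes at 0.98 or more. FGF19 was most like EDN3 (0.9972) and KRT81 (0.9960), with 82 such genes, and FGFR1 like FADS3 (0.9983) and BACE1 (0.9982), with 411. FGFR4 was nearest to ARHGAP5 (0.9912) and PPP2R5E (0.9893), and 26 genes reached 0.98. FGFRL1 reached only 0.9057 with LRFN1 and 0.8828 with GET4.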

How the data were processed

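Poly(A) RNA of 9 libraries was measured, 3 per line. The deposited counts are whole numbers of reads per RefSeq transcript, raw per the file headers, and the deposited RPKM was made by the authors from them: it equalled count over length and a library constant for 100% of transcripts within a relative 0.0001. Per the submitters' processing notes Trimmomatic, TopHat and GATK were used with hg19; for the counter, its strand setting and the annotation nothing is stated in the labels or headers used (not given in the sources used here). Names altered to dates (65 transcripts) were repaired by accession where possible. Tests ran in edgeR 4.0.16 under R 4.3.3 (TMM, filterByExpr, robust quasi-likelihood, 1 fit of 9 libraries, 14255 genes, biological coefficient of variation 3.56%), with Benjamini-Hochberg adjustment over all genes at 0.05. The procedure was tested on simulated data. CPM uses TMM-scaled library sizes, and RPKM served only for levels between genes. SE is the log2 fold change over the root of F. Samples were grouped by title. The labels state no pairing by replicate number. Alternatives were DESeq2 1.42.0, limma 3.58.1 on log2(RPKM + 1) and log2(RPKM + 0.1), RLE size factors, no filter, summed transcripts, fits of 6 libraries, a minimum fold of 2, a block for the replicate number, and each library left out in turn. The text names the 10 members, up to 4 genes per list by smallest adjusted p in APC against CONTROL, the nearest tested genes beside a member, the 2 genes most like each member of at least 10 CPM, ESRP1, ESRP2 and APC, and not all of these are printed. Named besides these were KLB, which was too low to test, HS3ST1 and some cell type markers. Members and lists were chosen with earlier results of these data known. The sequences of the FGFR2 exons are not reported here.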

Additional observations from a re-analysis of the deposited data

How the results depend on the processing

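Of 540 alternative values for the 10 genes, 511 kept their direction and their side of the threshold, 22 lost a call, 5 gained one and 2 changed sign. With a minimum fold of 2, 4 of the 10 FGF genes were called for APC against SW480 (FGF9, FGF18, FGF19 and FGF20). For APC against CONTROL 2 were called (FGF18 and FGF20), and for CONTROL against SW480 1 (FGF19). Of 64 pathway genes tested, 16, 17 and 2 were called in the same order, beside 2050, 1940 and 223 of all 14255 genes. That test asks for more than any difference, which lowers the counts by construction. On log2(RPKM + 1), which understates changes of low genes, limma gave smaller log2 fold changes without losing a call: for APC against SW480 -2.20 for FGF18, -0.56 for FGF9, -0.17 for FGF2, 0.54 for FGFR2 and -0.63 for FGFR3, for APC against CONTROL -1.70 for FGF18, -0.16 for FGF9, -0.12 for FGF2 and -0.50 for FGFR3, and for CONTROL against SW480 0.62 for FGFR2 and -0.39 for FGF9. FGFRL1 in APC against CONTROL ranged from -0.054 to 0.13 on the log2 scale when 1 library was left out, with values of -0.054 without APC replicate 1 and -0.0085 without CONTROL replicate 1 (the cause was not tested). With a replicate block the counts were 9, 8 and 5 of the 10 FGF genes and 50, 51 and 35 of the 64 pathway genes. That fit called 10296, 9992 and 7109 of all 14255 genes in the same order, and it changed no call of an FGF gene. Correlations of same-numbered libraries ran from -0.065 to 0.092, the highest being replicate 1 of APC and SW480, and those of other pairs from -0.0863 to 0.0602. Replicates were less alike in pairs with replicate 1 of APC or SW480. Chi-square per degree of freedom over genes was 3.12 and 3.06 with APC replicate 1 and 1.75 without it. With SW480 replicate 1 it was 4.96 and 5.38, and 2.28 without it. The FGFR2 IIIb minus IIIc difference, an alternative added after seeing the data, stayed between 3.93 and 4.85 points against SW480 and between 4.78 and 5.83 against CONTROL with each library left out. Depth limits FGF18 and FGF9 in APC (9 to 26 counts per library) and the FGFR2 and FGFR3 exon differences.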
